A study of Mus musculus with 65 samples.

Results

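The thymus of 4-month-old mice was described by the genes and exons in which it stood apart from 4 other tissues of mice of the same age. Its members were the 5 thymus arrays whose sample titles give an age of 4 months, of 65 arrays in the series, and they were set against 18 arrays: 5 of bone, 5 of skeletal muscle, 5 of ventral skin and 3 of white adipose tissue. The tissues were compared by weighting each of the 4 group means equally. Adipose replicates 4 and 5 were left out because they carried genes of the epididymis.

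RNA was measured on exon arrays in 13 combinations of tissue and age, with 5 samples each. All mice were untreated wild-type C57BL/6J males, and the 23 arrays compared here came from mice aged 4 months. Bone was taken from the tibia, muscle from the thigh, skin from the ventral side and fat from the abdomen. The 23 arrays came from 14 mice, 7 of which gave 2 or 3 of them. Each array measured the RNA of a whole piece of tissue with all its cell types, so that a larger share of a cell type and more RNA per cell cannot be told apart.

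The thymus is the organ in which bone marrow progenitors become T cells. Its cortex is packed with dividing and rearranging thymocytes that carry both CD4 and CD8, and with epithelial cells that recruit them and present self peptides for positive selection. Its medulla holds the epithelial cells that display tissue-restricted antigens and delete self-reactive cells. Surface T cell receptors signal through the CD3 chains, and the genes of the receptor chains are assembled by the RAG recombinase.

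A gene value is the mean log2 signal over the probe sets that carry 1 gene symbol, and 15830 genes had one. A level is such a value in 1 array or a mean over arrays, and a difference is the thymus mean minus the mean of the other 4 tissues, with its standard error (SE). A gene was called higher or lower where the limma adjusted p was below 0.05 and the difference was at least 2-fold, which is 1 on the log2 scale. The lower quartile of gene values lay between 3.29 and 3.50 in the 23 arrays and their median between 4.70 and 5.12, so that a level near 3 is close to the background of the array and a fold against it understates the true ratio.

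Promoters are shown for 4 genes at the centre of the results: Rag1, the catalytic subunit of the recombinase, Cd3e and Cd3d, signalling chains of the receptor, and Psmb11, the proteasome subunit of cortical epithelial cells. Each window runs from 250 bases before to 50 bases after the start of the gene in RefSeq on GRCm38.p6, at chr2:101649483-101649782 on the minus strand for Rag1, chr9:45009562-45009861 on the minus strand for Cd3e, chr9:44981536-44981835 on the plus strand for Cd3d and chr14:54625060-54625359 on the plus strand for Psmb11. Capitals mark matches, on either strand, to 5 motifs of factors known in T cell development: CACCTG for the E-box, TGTGGT for Runx, CTTTGT for TCF/LEF, AGGAAG for ETS factors and AGATAA for GATA factors. No match overlapped another in these windows.
Rag1: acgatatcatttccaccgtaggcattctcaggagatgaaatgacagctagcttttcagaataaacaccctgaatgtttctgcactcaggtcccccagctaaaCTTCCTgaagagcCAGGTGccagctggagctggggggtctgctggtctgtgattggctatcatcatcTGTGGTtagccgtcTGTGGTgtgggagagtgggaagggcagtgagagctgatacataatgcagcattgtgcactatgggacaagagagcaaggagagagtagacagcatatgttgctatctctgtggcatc
Cd3e: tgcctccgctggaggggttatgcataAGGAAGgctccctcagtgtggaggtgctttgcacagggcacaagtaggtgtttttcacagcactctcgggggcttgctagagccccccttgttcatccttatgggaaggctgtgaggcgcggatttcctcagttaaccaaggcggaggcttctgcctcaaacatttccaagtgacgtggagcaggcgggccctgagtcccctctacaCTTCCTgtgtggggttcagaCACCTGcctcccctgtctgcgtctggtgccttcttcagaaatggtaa
Cd3d: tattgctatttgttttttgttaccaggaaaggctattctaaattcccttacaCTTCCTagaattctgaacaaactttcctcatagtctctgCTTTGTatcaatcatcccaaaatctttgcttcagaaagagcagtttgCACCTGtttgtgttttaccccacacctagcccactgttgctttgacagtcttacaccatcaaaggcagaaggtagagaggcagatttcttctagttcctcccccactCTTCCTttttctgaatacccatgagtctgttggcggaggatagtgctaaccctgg
Psmb11: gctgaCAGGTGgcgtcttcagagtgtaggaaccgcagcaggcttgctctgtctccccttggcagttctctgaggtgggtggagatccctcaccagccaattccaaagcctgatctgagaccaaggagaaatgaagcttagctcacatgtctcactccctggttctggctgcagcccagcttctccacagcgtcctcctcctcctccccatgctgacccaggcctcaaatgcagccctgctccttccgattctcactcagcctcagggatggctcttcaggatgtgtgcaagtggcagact
Rag1 held an ETS match, an E-box and a pair of Runx matches, Cd3e held 1 E-box and 2 ETS matches, Cd3d held an E-box, a TCF/LEF match and 2 ETS matches, and Psmb11 held 1 E-box. Among the 573 genes that were higher in the thymus than in every other tissue, 447 had promoters in the RefSeq table, with 624 windows because a gene can have several starts. The E-box letters stood in 20.8% of these windows and in 20.2% of all 32851 windows, Runx in 13.9% and 16.8%, TCF/LEF in 18.4% and 18.7%, ETS in 36.4% and 35.4%, and GATA in 7.21% and 11.2%. Any of the 5 was found in 64.1% of the windows of these genes and in 68.3% of all windows. These shares are descriptions of letters within 300 bases and were not tested.

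Some arrays stood apart from others of their tissue. Adipose replicate 1 carried lymphocyte genes: the mean level of the T cell receptor complex was 6.04 in it and at most 3.62 in the other 2 adipose arrays, and that of 12 B cell genes was 7.27 against at most 4.50. Muscle RNA varied in 2 other tissues, where the mean level of 13 muscle fibre genes ran from 6.29 to 10.01 over the bone arrays and from 6.48 to 11.7 over the skin arrays, while in the thymus it stayed between 3.89 and 4.05. The 5 thymus arrays were much alike, with correlations across genes of 0.993 to 0.996 with each other. They correlated at 0.858 to 0.874 with bone, 0.794 to 0.858 with adipose tissue, 0.766 to 0.804 with skin and 0.739 to 0.755 with muscle.

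Against the mean of the other 4 tissues, 1849 genes were higher in the thymus (11.7% of 15830) and 1966 were lower (12.4%). The higher genes included the larger differences: 225 differed by at least 3 on the log2 scale and 44 by at least 5, against 167 and 4 of the lower genes. The median difference over all genes was -0.05, and 9539 genes passed the adjusted p without the limit on the fold. In 573 genes (3.62%) the thymus was higher than each of the 4 tissues by the same limits, and in 556 of these all 5 thymus arrays lay above all 18 others. It was lower than each of the 4 tissues in 404 genes (2.55%), and in 391 of these all 5 arrays lay below the others.

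Bone shared the most with the thymus. Of the 1849 higher genes, 1684 were also called higher than muscle alone, 1586 than skin, 1578 than adipose tissue and 909 than bone, and 691 were called against each of the other 3 tissues but not against bone. These 4 comparisons share the same thymus arrays. The corresponding backgrounds, the genes called higher in the thymus in each comparison, were 16.8% of all genes against muscle, 14.1% against skin, 13.5% against adipose tissue and 9.74% against bone. The genes called lower than bone were 9.5% of all genes.

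Genes of receptor gene recombination included the largest difference. Rag1 had levels of 12.97, 12.98, 13.08, 13.02 and 13.01 in the 5 thymus arrays, 6.01 to 7.46 in bone, and 2.97 to 3.56 in the 13 arrays of muscle, skin and adipose tissue. All thymus arrays were far above all others, with bone in between. The difference was 8.79 (SE 0.138, adjusted p = 7.51e-22), or 444-fold, the largest difference among genes higher than in every tissue. Dntt, which adds untemplated nucleotides at receptor joints, had levels of 11.89 to 11.94 in the thymus, 4.91 to 5.67 in bone and 2.73 to 3.28 elsewhere, a difference of 8.28 (SE 0.0791, adjusted p = 6.81e-26). Rag2, the partner of Rag1, had levels of 8.09, 8.08, 7.83, 8.22 and 8.49 in the thymus and at most 3.09 in the others (difference 5.37, SE 0.0703). Of 10 measured genes of V(D)J recombination and end joining, 9 were higher and 7 were higher than in every tissue, with a median difference of 2.62. Xrcc6, which encodes the Ku70 subunit that binds broken ends, had a level of 10.9 in the thymus and 6.60 to 7.82 as means of the other tissues (difference 3.66, SE 0.129), whereas Xrcc5, its Ku80 partner and the only member not called, differed by 0.83.

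All 7 measured genes of the T cell receptor complex were higher than in every other tissue, with a median difference of 5.99 against -0.05 for all genes. Cd3e had levels of 10.47, 10.60, 10.51, 10.47 and 10.53 in the thymus. Its levels were 3.81 to 4.40 in bone, 3.69 to 4.23 in muscle, 4.59 to 5.85 in skin and 7.48, 3.94 and 3.92 in adipose replicates 1, 2 and 3. The groups did not overlap, and adipose replicate 1 was the highest of the 18 others. The difference was 5.99 (SE 0.354, adjusted p = 3.89e-12). Cd3g (difference 7.19, SE 0.575), Cd3d (7.01, SE 0.343) and Trat1, a receptor-associated adaptor (6.55, SE 0.22), were separated in the same way, and Cd3g was also seen in skin, at 6.75 to 8.82. Ptcra, the surrogate alpha chain of immature thymocytes, had a lower level, 5.91 to 6.32, against 3.77 to 4.21 in the other tissues (difference 2.14, SE 0.0795, adjusted p = 2.37e-15). Cd247, the zeta chain, differed by 3.34 (SE 0.0979) and Tcra, the alpha chain, by 3.66 (SE 0.144), or by 6.68 over probe sets with a mean of at least 5.

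**Figure D1:**
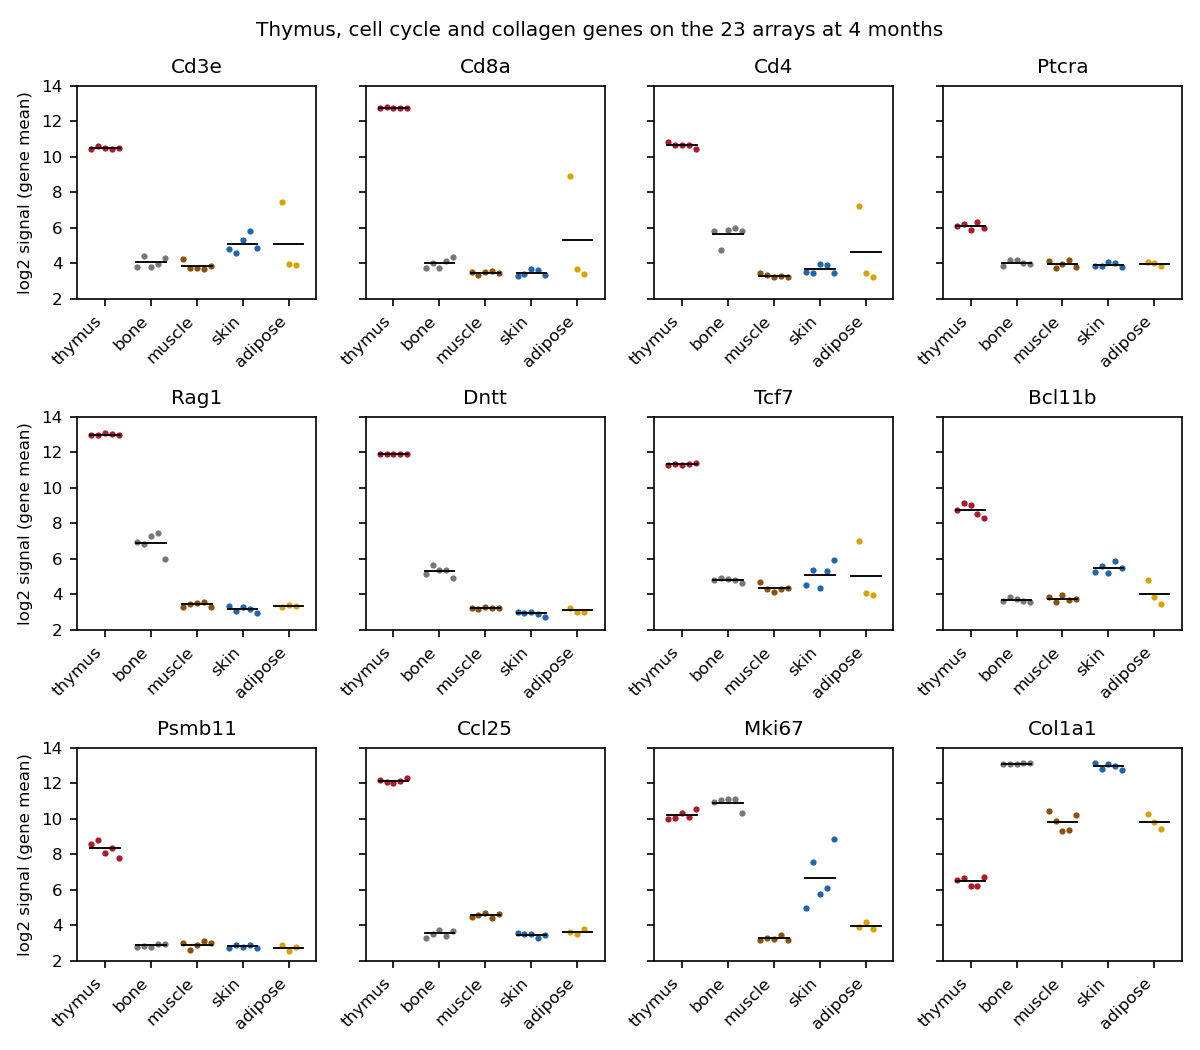
Log2 level of 12 genes in each of the 23 arrays at 4 months, by tissue (5 arrays each of thymus, bone, muscle and skin, 3 of adipose tissue), with a line at the mean of each tissue. The recombination, receptor and cortical epithelial genes are high in all 5 thymus arrays, adipose replicate 1 rises above the other adipose arrays in lymphocyte genes, Mki67 overlaps between bone and thymus, and Col1a1 is lowest in the thymus.

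Both coreceptors were high. Cd8a had levels of 12.75 to 12.81 in the 5 thymus arrays, 3.28 to 4.34 in the 15 arrays of bone, muscle and skin, and 8.91, 3.67 and 3.42 in adipose replicates 1, 2 and 3. Its difference was 8.70 (SE 0.499, adjusted p = 2.36e-12) with adipose replicate 1 and 9.15 without it. Cd4 had levels of 10.47 to 10.83 in the thymus, 4.73 to 6.01 in bone and at most 3.97 in muscle and skin, with 7.22 in adipose replicate 1 (difference 6.35, SE 0.382). Cd8b1, the other CD8 chain, differed by 6.63 (SE 0.344). Of 23 measured surface genes of T cells, 20 were higher, none was lower and 15 were higher than in every tissue, with a median difference of 3.26. These included Thy1 (5.49, SE 0.255), the thymocyte surface antigen, Cd6 (5.09, SE 0.228), and Il2ra (3.90, SE 0.123), the interleukin 2 receptor chain of early thymocytes. Over probe sets with a mean of at least 5 the difference in Il2ra was 1.44.

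Genes that carry the receptor signal followed the receptor. Of 26 measured, 22 were higher, none lower and 15 higher than in every tissue, with a median difference of 3.39 (1.90 against bone alone). E430004N04Rik, now named Themis and needed for positive selection, had levels of 11.40, 11.46, 11.54, 11.58 and 11.62 in the thymus, against a median of 3.09 and a maximum of 5.87 over the 18 others, the maximum being adipose replicate 1. It differed by 8.18 (SE 0.27, adjusted p = 3.32e-16). Zap70, the kinase recruited to phosphorylated CD3 chains, differed by 4.38 (SE 0.123), Sh2d1a, the adaptor SAP, by 6.09 (SE 0.0819), and Txk, a Tec family kinase, by 3.97 (SE 0.153). Ptprc, which encodes CD45 on white blood cells, had levels of 11.53 to 11.73 in the thymus and 9.56 to 10.2 in bone. It differed by 3.76 from the mean of the 4 tissues but by 1.73 from bone. Lck was not analysed here.

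Among 28 measured transcription factors of the T lineage, 17 were higher, 11 of them than in every tissue, and 3 were lower. Tcf7, a factor of T lineage commitment, had levels of 11.28 to 11.39 in the thymus and at most 7.04 elsewhere (difference 6.51, SE 0.319, adjusted p = 2.03e-13). Bcl11b, which closes off other lineages, was at 8.32 to 9.15 in the thymus, 5.50 as the mean of skin and 3.68 to 4.03 as means of the remaining tissues (difference 4.52, SE 0.154). Tox, a factor of the CD4 lineage, differed by 4.90 (SE 0.146). Gata3, needed for CD4 cells and also known in hair follicles, was high in the thymus at 8.38 to 8.85 and higher still in skin at 9.17 to 9.88. Its difference was 3.40 (SE 0.113) from the mean of the 4 tissues and -0.95 from skin (adjusted p = 4.64e-06). The 3 lower factors were Hes1, Hhex and Zbtb7b, with differences of -1.01, -1.04 and -1.59. Zbtb7b, the ThPOK factor of mature CD4 cells, was lower than in every tissue, at 5.04 as the mean of the thymus.

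Chemokine receptors and genes of thymocyte exit were mixed. Ccr9, the receptor for the thymic chemokine CCL25, had levels of 11.65 to 11.92 in the thymus and 2.97 to 4.83 in all others, a difference of 8.13 (SE 0.185, adjusted p = 6.41e-19). Cxcr4 was at 10.41 to 10.62 in the thymus and at 10.1 as the mean of bone, with no call between them (difference 0.43, adjusted p = 0.244). Of 15 measured genes, 12 were higher and 4 were higher than in every tissue. Without adipose replicate 1 that last count was 7. The 1 lower gene was S1pr1, the receptor by which mature cells leave, with a difference of -1.44 (SE 0.193). Of 15 genes of survival and selection 7 were higher and none lower, among them Fas (2.86, SE 0.137), a death receptor, Bcl2l11 (1.76, SE 0.103), which encodes the pro-apoptotic BIM, and Pdcd1 (1.86, SE 0.0779).

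Genes of the cortical epithelium gave differences of a similar size. Ccl25 had levels of 12.17, 12.06, 12.04, 12.12 and 12.29 in the thymus and 3.28 to 4.68 in the others. Prss16, the thymus-specific serine protease, had levels of 12.05, 12.08, 11.73, 11.68 and 11.60, against 3.55 to 4.46. Psmb11, the beta5t subunit of the thymoproteasome, had levels of 8.61, 8.84, 8.08, 8.39 and 7.82, against 2.53 to 3.12. In each of these genes all thymus arrays were above all others, by wide margins. The differences were 8.33 (SE 0.0704, adjusted p = 2.08e-26), 7.99 (SE 0.0741, adjusted p = 4.87e-26) and 5.51 (SE 0.114, adjusted p = 1.23e-19). 1700021K02Rik, now named Tbata, had a difference of 8.63 (SE 0.0753), and of 17 cortical genes 13 were higher, 9 of them than in every tissue, and only Kitl was lower (-1.67), with a median difference of 2.29. Foxn1, the master regulator of thymic epithelium that also acts in hair follicles, was at 5.20 to 5.90 in the thymus but at 6.75 and 6.66 in skin replicates 2 and 5, and at 3.63 to 4.08 in the other 3 skin arrays. Its difference was 1.33 (SE 0.364, adjusted p = 0.00316) against the 4 tissues and was not called against skin. Over its probe sets with a mean of at least 5 it was 0.59 (adjusted p = 0.0785), which is no call.

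Medullary epithelial genes stood out far less. Of 14 measured, 4 were higher, 1 was higher than in every tissue and 1 was lower, with a median difference of 0.51. Aire, which drives expression of tissue-restricted antigens, had levels of 4.198, 4.29, 4.39, 4.11 and 4.17 in the thymus and 3.53 to 3.94 in the others. The thymus arrays were all higher, but the difference of 0.52 (SE 0.0612, adjusted p = 1.75e-07) was less than 2-fold. It was 0.07 over probe sets with a mean of at least 5 and 0.68 by the median over probe sets. Fezf2, another regulator of such antigens, was the gene higher than in every tissue (1.40, SE 0.0704). Krt5, a keratin of medullary and epidermal epithelium, was at 8.35 to 8.81 in the thymus, 11.6 as the mean of skin and 3.84 to 4.02 as means of the remaining tissues. Krt10, a keratin of differentiated epidermis, had a difference of -1.53 (SE 0.0798) that was -7.38 against skin and 0.51, 0.27 and 0.47 against bone, muscle and adipose tissue.

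Division genes were shared with bone, whose marrow is also full of dividing cells. Mki67, a marker of cycling cells, had levels of 10.02, 10.06, 10.32, 10.09 and 10.54 in the thymus and 10.95, 11.06, 11.14, 11.13 and 10.34 in bone. Bone and thymus overlapped, and the rest were lower, with 3.20 to 4.17 in muscle and adipose tissue and 4.99 to 8.85 in skin. Against the mean of the 4 tissues the difference was 3.99 (SE 0.359, adjusted p = 3.05e-09), and against bone it was -0.72 (adjusted p = 0.196). Of 39 measured cell cycle genes, 38 were higher than the mean of the 4 tissues, with a median difference of 3.05. Against bone alone 1 was higher and 2 were lower, with a median difference of 0.08. The 1 gene higher in the thymus than in every tissue was Hells, a chromatin remodeller of dividing cells, at 9.59 to 9.76 against 7.94 to 8.35 in bone.

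Genes of antigen presentation were higher in part. The inducible proteasome subunits Psmb8 (difference 2.99, SE 0.253), Psmb9 (2.08, SE 0.225) and Psmb10 (1.90, SE 0.151) and the peptide transporter subunits Tap2 (2.54, SE 0.192) and Tap1 (2.00) were all higher than in every tissue, 5 of 9 genes of the class I pathway. The class I chains themselves were not called against the mean of the 4 tissues: H2-K1 differed by -0.07, H2-D1 by -0.05 and B2m by 0.38. Tapbp, the remaining gene of this list, was not called either. Against muscle alone all 9 genes were higher, and 5 were against each of bone, skin and adipose tissue. In class II, 5 of 9 genes were higher and 2 were higher than in every tissue. One of the 5, H2-Aa, was at the limit with a difference of 1.02, and its call was lost with mouse as a block (0.998). The genes higher than in every tissue were H2-Oa (3.30, SE 0.302) and H2-DMb2 (2.72, SE 0.479), which modulate peptide loading. H2-DMb2 rests on 1 probe set, and its thymus arrays, 7.76 to 8.51, overlapped with adipose replicate 1 at 8.83. H2-Ab1 was at 11.3 to 11.5 in the thymus, with a difference of 1.21 (SE 0.22), and the differences from bone, muscle, skin and adipose tissue alone were 1.71, 2.59, 0.23 and 0.30.

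**Figure D2:**
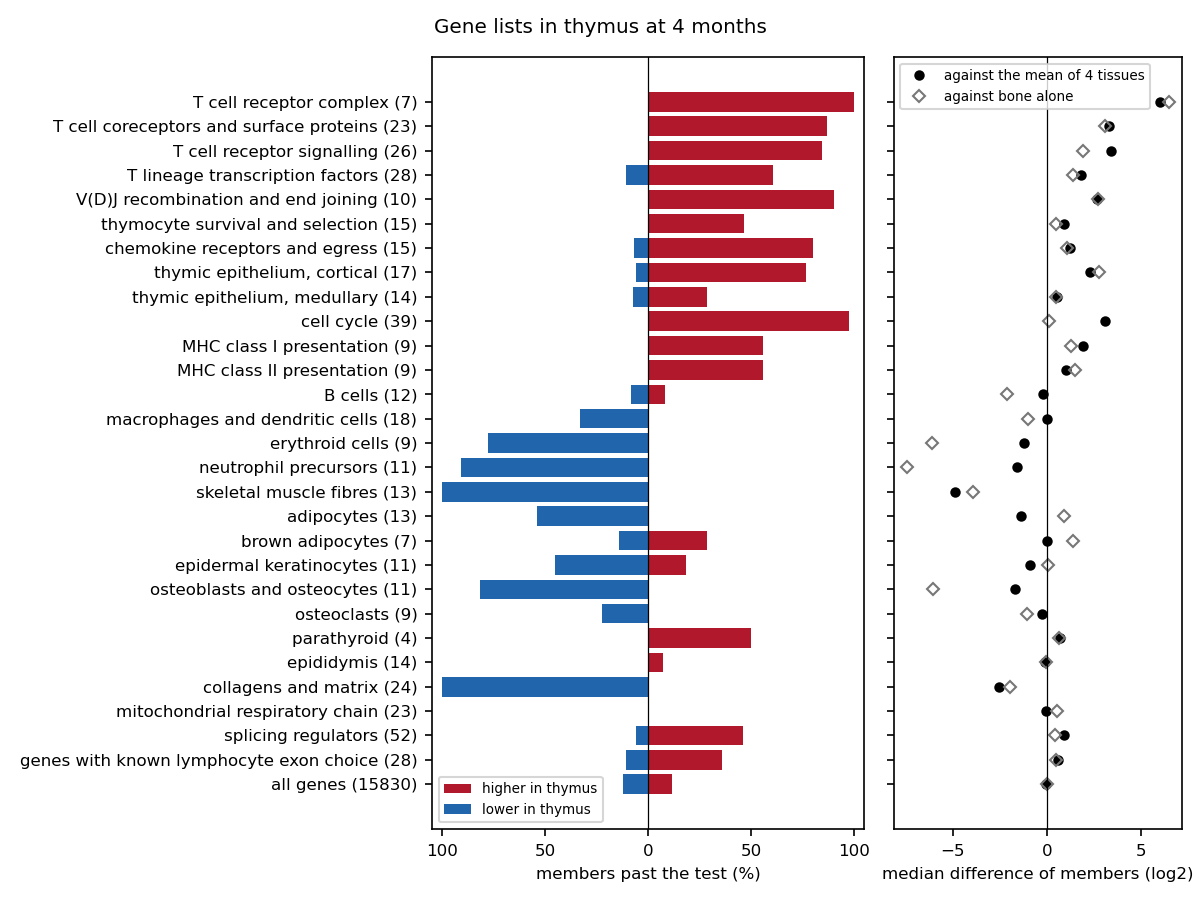
Left, percent of the measured members of each gene list called higher or lower in the thymus than the mean of the 4 other tissues. Right, median log2 difference of each list against the mean of the 4 tissues and against bone alone. T cell and cortical epithelial lists lie to the right in both, cell cycle genes lie at 3.05 against the 4 tissues and at 0.08 against bone, and collagen and muscle genes lie to the left.

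Matrix genes were the list with the most members lower than in every tissue. All 24 measured collagen and matrix genes were lower, 17 of them than in every tissue, with a median difference of -2.55. Col1a1, the main chain of fibrillar collagen, had levels of 6.57, 6.70, 6.22, 6.23 and 6.71 in the thymus. It was at 13.09 to 13.15 in bone, 12.76 to 13.13 in skin, 9.31 to 10.45 in muscle and 9.42 to 10.28 in adipose tissue. The thymus lay below all of them, by 4.96 on average (SE 0.15, adjusted p = 9.11e-17), which is 31.1-fold. Col1a2 was lower by 4.52 (SE 0.122), Sparc, a matrix glycoprotein, by 4.28 (SE 0.118), Col6a3 by 3.85 (SE 0.137) and Fn1, fibronectin, by 3.16 (SE 0.167). Aspn, a small matrix proteoglycan, differed by -4.50 (SE 0.289), Ctsk, the collagen-degrading cathepsin of osteoclasts and fibroblasts, by -4.48 (SE 0.189), Cpe, a carboxypeptidase that processes prohormones, by -4.85 (SE 0.167) and Fhl1, a LIM domain protein of muscle, by -4.64 (SE 0.3).

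Acta1, skeletal muscle actin, had the largest negative difference of the genes lower than every tissue. Its levels were 5.07, 5.00, 4.85, 4.95 and 5.19 in the thymus, 13.36 to 13.45 in muscle, 9.40 to 12.52 in bone, 9.71 to 13.12 in skin and 6.42 to 9.57 in adipose tissue. The thymus was lowest, and the spread within bone, skin and adipose tissue was large. The difference was -6.11 (SE 0.497, adjusted p = 6.18e-10). All 13 muscle fibre genes were lower than the mean of the 4 tissues, with a median difference of -4.90, but of this list only Acta1 was lower than in every tissue, since adipose tissue also had little: the median difference from adipose tissue alone was 0.04. Myl1, a myosin light chain outside this list, was also lower than in every tissue, at 3.78 to 4.38 in the thymus and 5.66 to 11.58 in the others (-4.75, SE 0.574). The muscle RNA in the bone and skin arrays, given above, moves with these differences, and its part in them was not tested.

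Genes of red cell and neutrophil precursors had median levels of 3.33 and 3.62 in the thymus and of 10.34 and 11.41 in bone. Of 9 measured erythroid genes 7 were lower, with a median difference of -6.11 from bone and of 0.01, 0.20 and 0.14 from muscle, skin and adipose tissue. Of 11 genes of neutrophil precursors 10 were lower, with a median difference of -7.44 from bone. Alas2, the heme synthesis enzyme of red cells, was not near background, at 5.51, 7.18, 9.80, 5.66 and 6.64 in the thymus (difference 0.14, SE 0.414). Slc4a1, the red cell anion exchanger, was at 5.58 in thymus replicate 3, which was also the highest in Alas2, and at 3.58 to 3.81 in the other 4. Rhag, a red cell membrane protein, was at 2.87 to 2.98 in the thymus, 10.5 as the mean of bone and 2.82 to 3.25 as means of the other 3 tissues. Mpo, the neutrophil peroxidase, was at 3.45 to 3.72 against 11.1 in bone. The mean level of the neutrophil list was 3.62 to 3.87 in the thymus arrays and 10.5 to 10.8 in bone. Of 18 genes of macrophages and dendritic cells 6 were lower, none was higher and 12 were called neither way, with a median difference of 0.02. Against muscle alone 9 were higher and none lower. Against the other tissues none was higher, and 9 were lower than bone, 7 than skin and 9 than adipose tissue. Among the 6 genes lower than the mean of the 4 tissues were Itgam at -2.48 (SE 0.166), Cd163 at -1.95 (SE 0.206) and Mrc1 at -1.58 (SE 0.189). C1qa, a complement chain of macrophages, differed by 0.19 and Flt3, a receptor of dendritic cell precursors, by 0.92.

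B cell genes were present at low levels. Of 12 measured, Cd79b was higher (1.37, SE 0.427, adjusted p = 0.00839) and Ebf1, the B lineage factor that fat cells also use, was lower than in every tissue (-3.19, SE 0.192). Cd79b, a chain of the B cell receptor, was at 6.84, 7.28, 7.61, 7.15 and 7.17 in the thymus, 8.07 to 9.31 in bone, 9.65, 5.64 and 5.06 in adipose replicates 1, 2 and 3 and at most 4.43 in muscle and skin. The thymus lay below bone and above muscle and skin. Against bone 11 of the 12 genes were lower. Against muscle 4 were higher and 1 lower, against skin 5 and 2, and against adipose tissue 0 and 1. The mean level of the list was 4.52 to 4.75 in the thymus and 6.38 to 6.93 in bone.

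Some thymus arrays carried genes that mark brown fat and the parathyroid gland, tissues known to lie near the thymus. Ucp1, the uncoupling protein of brown fat, had levels of 8.87, 6.02, 9.30, 9.51 and 8.64 in thymus replicates 1 to 5 and 2.72 to 3.46 in all others. The groups did not overlap, and replicate 2 was the lowest of the thymus arrays. The difference was 5.54 (SE 0.325, adjusted p = 3.52e-12), and 6.15 without replicate 2. Cidea, a lipid droplet protein of brown fat, had levels of 7.18, 4.40, 6.93, 7.33 and 6.48, with the same replicate lowest, but was higher in skin, at 7.19 to 8.01. The mean level of 7 brown adipocyte genes was 4.11 in replicate 2 and 5.75 to 6.10 in the other 4, and their median difference over the 4 tissues was -0.02, with 2 genes higher and Ppargc1a, a regulator of mitochondria that is high in muscle, lower (-1.76, SE 0.251).

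Pth, the parathyroid hormone, had levels of 3.79, 3.66, 5.72, 3.25 and 5.21 in thymus replicates 1 to 5 and 2.77 to 3.46 in the 18 others. Replicates 3 and 5 were high, and replicate 4 lay within the range of the other tissues. The difference was 1.30 (SE 0.252, adjusted p = 0.000117), and 0.95 without replicate 3, which is below 2-fold. Chga, chromogranin A of hormone-secreting cells, had levels of 5.16, 4.71, 6.14, 3.70 and 5.72, with the same order of the replicates and a difference of 1.52 (SE 0.234). Of 4 parathyroid genes measured these 2 were higher, and Casr and Chgb differed by -0.70 and 0.05. Over the probe sets with a mean of at least 5 the difference in Chga was 0.09. Whether these genes came from neighbouring tissue was not tested, nor was any part of such tissue in the other results. Among 13 general adipocyte genes the thymus levels had a mean of 6.08 to 7.33, above bone at 5.26 to 5.84, overlapping muscle at 6.80 to 8.53, below skin at 7.72 to 9.37 and below adipose tissue at 11.4 to 11.5. Of these genes 7 were lower, with a median difference of -1.38. Thymus replicate 2 again gave the lowest levels of Fabp4 (7.24 against 8.10 to 8.58) and Slc2a4 (5.12 against 5.93 to 6.30).

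**Figure D3:**
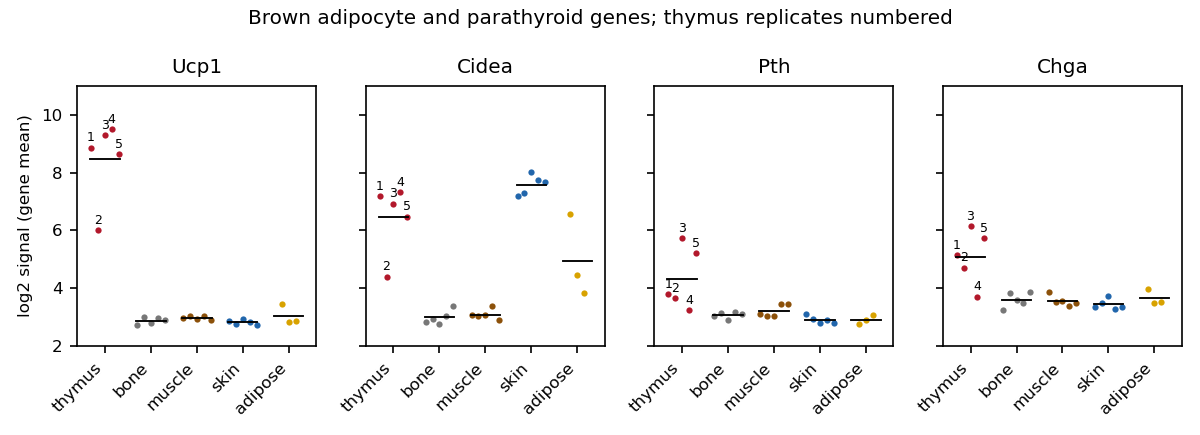
Log2 level of the brown fat genes Ucp1 and Cidea, of Pth and of Chga in each of the 23 arrays, by tissue, with the thymus replicates numbered. Replicate 2 is lowest of the thymus arrays in Ucp1 (6.02) and Cidea (4.40), and replicates 3 and 5 are highest in Pth (5.72 and 5.21) and Chga (6.14 and 5.72).

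Genes of energy metabolism lay close to the mean of the other tissues. The 23 measured respiratory chain genes differed by -0.48 to 0.27, all less than 2-fold, with a median difference of -0.06. Against single tissues the median was -1.05 for muscle, 0.52 for bone, 0.47 for skin and -0.33 for adipose tissue.

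Regulators of RNA splicing were more often higher than lower against the mean of the 4 tissues. Of 52 measured, 24 were higher, 3 were lower and 25 were called neither way. Of all genes 11.7% were higher and 12.4% lower. The median difference was 0.90 (0.43 against bone). Against muscle 34 were higher and 4 lower, against skin 24 and 5, and against adipose tissue 32 and 2. Higher than in every tissue were 2 of the 52, where 3.62% of all genes were, and higher than bone were 3, where 9.74% of all genes were. Tia1, an RNA-binding regulator of exon inclusion, had levels of 9.54 to 9.76 in the thymus and 6.98 to 8.36 in the others (difference 2.00, SE 0.111). Hnrpll, which regulates CD45 exons in lymphocytes, was at 8.24 to 8.56 against 6.80 to 8.24, a difference of 1.09 (SE 0.0871, adjusted p = 4.47e-10) that was 0.38 against bone. Mbnl3 (2.92, SE 0.168) and Sfpq (1.33, SE 0.0838) were also higher, with all 5 thymus arrays above all 18 others. Rbm9, the splicing factor now named Rbfox2, was at 5.68 to 5.81 in the thymus and 6.36 to 8.57 in the others, a difference of -1.99 (SE 0.0782, adjusted p = 6.1e-15), with bone nearest at 6.42 as a mean.

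Exon usage was compared in genes expressed in all 5 tissues. Usage is the log2 level of a probe set minus the mean of the other probe sets of its gene in the same array, and most probe sets lie within a single exon. The comparison took 3982 genes, with 54267 probe sets, whose mean was at least 5.05 in every tissue and whose level differed by less than 2-fold between the thymus and the other tissues. By the limma F-test 1226 genes (30.8%) had a probe set pattern in the thymus that differed from the mean of the other tissues, and 2336 probe sets (4.3%) passed on their own. The count of genes was 797 to 921 without any 1 of the thymus arrays, with 811 without replicate 4 and 797 without replicate 5, and 2209 with no limit on the difference in gene level. On simulated data with few changed probe sets the F-test passed far more unchanged genes than an adjusted p of 0.05 allows. Among the probe sets that passed, those with no change put in outnumbered the changed ones. They were counted over all genes, also those with a changed probe set, where the usage of the other probe sets shifts as well. How many of them lay in such genes was not counted. A probe set was called thymus-specific where it also differed by at least 2-fold, went the same way against each tissue and had all 5 thymus arrays on the same side of the 18 others. This left 53 more used (0.0977% of probe sets) and 75 less used (0.138%) in the thymus, in 98 genes, of which 16 had at least 2.

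The largest difference was in Rabgap1l, a Rab GTPase-activating protein. Usage of its probe set 5273014 was 3.58, 3.19, 2.72, 3.30 and 3.00 in the thymus, 0.24 to 0.95 in bone and -3.64 to -1.60 in the other 13 arrays, while the gene as a whole differed by 0.48. The thymus was above all others, with bone between. The difference in usage was 5.06 (SE 0.213, adjusted p = 1.07e-78), or 33.3-fold, and the signal of the probe set itself had means of 10.9 in the thymus, 8.93 in bone and 3.31 to 5.43 in the others. The test pools the spread over all probe sets of a gene, which therefore share the same SE. It counts probe sets of the same arrays as independent. Adjusted p-values of usage, here and below, therefore do not measure the spread between arrays alone. In Spnb2, now Sptbn1, the beta spectrin of the membrane skeleton, 3 of 49 probe sets were among the largest gains. Usage of 5270878 was -1.18 to -0.72 in the thymus and -7.04 to -3.81 in the others (difference 4.37, SE 0.188), and probe sets 5559217 and 4684563 differed by 3.33 and 3.23. Bone was near the thymus in both of these. Mean usage of 5559217 was -0.07 in the thymus, -1.21 in bone and -4.91 to -2.78 in the others. For 4684563 it was 0.53, -0.62 and -4.42 to -1.765. At 18 months the arrays overlapped in 5559217 and 4684563 but not in 5270878.

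Losses were largest in Pde4d, a phosphodiesterase that degrades cyclic AMP and is known for many isoforms. Usage of probe set 4312447 was -3.95, -4.29, -3.36, -2.94 and -4.05 in the thymus and -0.39 to 1.76 in the others, and its signal of 2.85 to 3.96 in the thymus was near background while the gene as a whole differed by -0.04. The groups did not overlap. The difference was -4.66 (SE 0.308, adjusted p = 6.23e-36), and a further probe set, 4930769, differed by -3.63. In Mbp, whose long golli transcripts are known in T cells and whose shorter ones encode myelin basic protein, 5 of 12 probe sets were thymus-specific. Probe sets 4322005 and 4975266 were less used, by -2.79 and -2.38 (SE 0.311 each), with the level of 4322005 at 4.48 to 4.94 in the thymus and up to 9.88 in skin. Muscle and skin were furthest from the thymus. Mean usage of 4322005 was -0.87 in the thymus, 0.31 in bone, 0.85 in adipose tissue, 3.33 in muscle and 3.19 in skin. For 4975266 these means were 0.07, 1.09, 1.70, 3.845 and 3.16. At 18 months the arrays overlapped in all 12 Mbp probe sets. Mbp 4322005 in adipose replicate 3, at 4.60, had a level within the thymus range, so that the sides were separated there in usage and not in signal. Probe set 5412081 of Slc44a2, a choline transporter-like protein, differed by -2.56 but was at 2.65 to 2.77 as means of thymus, bone and adipose tissue, which is background. Probe set 4415003 of Mtap1s, now Map1s, a microtubule-associated protein, differed by -2.35 (SE 0.198), while the gene as a whole differed by 0.85. Its level was 6.57 to 7.38 in the thymus, 6.69 to 7.24 in adipose tissue and 6.41 to 7.92 in muscle. Against these 2 tissues the arrays were separated in usage and not in signal.

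**Figure D4:**
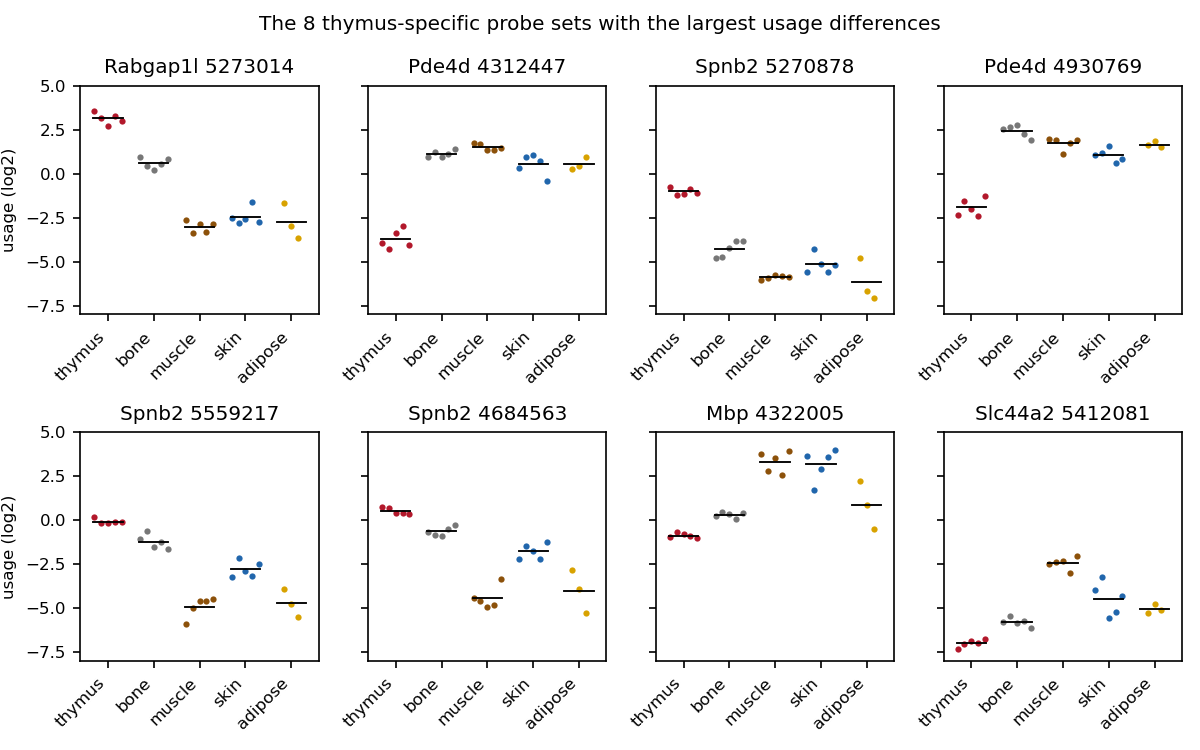
Usage (log2 level of a probe set minus the mean of the other probe sets of its gene) of 8 thymus-specific probe sets in each of the 23 arrays, by tissue. All 5 thymus arrays lie on 1 side of the 18 others in each panel, and the mean of bone is nearest in Rabgap1l, Spnb2, Mbp and Slc44a2.

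Signal limits some of these probe sets. In 60 of the 128 the level of the probe set also moved at least 2-fold in the direction of its usage, and 25 had a mean level below 5 in every tissue. Of 28 genes with exon choices known to change in lymphocytes, 15 could be tested, 9 passed the F-test and 1, Cugbp2, held thymus-specific probe sets. Of all 3982 tested genes 30.8% passed the F-test and 98 held such probe sets. Whether the 15 genes differed from these shares was not tested. Cugbp2, now Celf2, encodes a splicing regulator that is itself alternatively spliced. Its probe sets 4316241 and 4579194 were less used, by -1.87 (SE 0.248) and -1.63 (SE 0.248), and both were dim, with means between 2.62 and 4.86. Ptprc was not among the tested genes since its level differed.

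The comparison was repeated at 18 months on other mice, with thymus against the mean of bone, muscle and skin, 5 arrays each. There 1791 genes were higher (11.3%) and 1686 lower (10.7%). Of the genes higher at 4 months 82.2% were higher at 18 months, which is 84.8% of those higher at 18 months, and of the lower genes 74.1% were lower again, 86.4% of those lower at 18 months. Of the 573 genes higher than in every tissue 440 were so again, 76.8% of them and 72.7% of the genes with that call at 18 months (3.82% of all genes, and 2.61% were lower than in every tissue). Fewer of the 404 genes lower than in every tissue were so again: 251, which is 62.1% of them and 60.8% of the genes with that call at 18 months. Rag1 differed by 8.52, Dntt by 8.05, Cd8a by 8.71, Ccl25 by 8.31 and Psmb11 by 5.24 at 18 months. By the limma interaction test against the same 3 tissues, the thymus difference moved up by at least 2-fold from 4 to 18 months in 24 genes (0.152%) and moved down by that much in 0 genes (0%). At an unadjusted p below 0.05 these counts were 61 and 4. None of the 573 genes was among the 24. In Ucp1 the 18-month thymus arrays were at 9.27, 7.22 and 9.68 in replicates 1, 2 and 3, highest in replicate 4 and at 3.12 in replicate 5, a level within the range of the other tissues at 4 months. For exon usage, all 128 thymus-specific probe sets lay on the same side at 18 months, 80 of them by at least 2-fold, and in 44 the arrays did not overlap, against 0.737% of all probe sets.

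**Figure D5:**
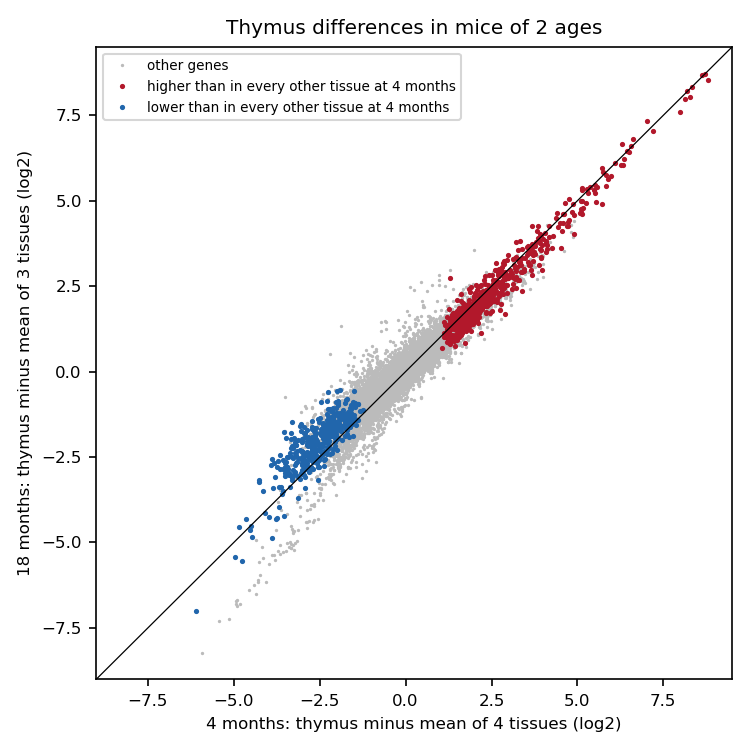
Log2 difference between thymus and other tissues for every gene, at 4 months on the x axis (4 other tissues) and at 18 months on the y axis (3 other tissues, other mice). The line marks equal differences, and Rag1 lies at the upper end, at 8.79 and 8.52.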

How the data were processed

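Each of the 65 samples was run on an Affymetrix Mouse Exon 1.0 ST array, and the 23 arrays at 4 months and 20 arrays at 18 months were used here. The authors deposited log2 signals of the core probe sets. They had been obtained in Partek with an RMA background step that takes GC content into account (GCRMA is also listed), then quantile normalization and median polish, and annotated on mm9. No intensities before normalization were used, and the number of arrays limits the precision. All columns of samples in the table belong to this series.

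Of 194293 probe sets, 179614 (92.4%) had 1 gene symbol, 1331 several and 13348 none, and those with 1 symbol were averaged into 15830 genes (median of 9 probe sets each). Of these genes 13745 carry a symbol of the GRCm38.p6 RefSeq table, which gave names and promoters only, matched by symbol or unique synonym. Exons are named by the identifier of the probe set, without coordinates.

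Groups were taken from the sample labels. Gene values were tested with limma 3.58.1 in R 4.3.3, with 5 group means over 23 arrays, a contrast of thymus with the mean of the 4 other means, and 4 pairwise contrasts. P-values were adjusted over all genes by Benjamini-Hochberg, and calls needed an adjusted p below 0.05 and at least 2-fold. Exon usage was tested with diffSplice of limma on probe sets whose mean reached 3, where a gene had 3 or more of them. It pools the spread over the probe sets of a gene, so that its p-values do not measure the spread between arrays alone. On simulated data the gene test recovered most changed genes, while the exon tests passed more unchanged genes and probe sets than their nominal rate. The unchanged probe sets were counted also in genes with a changed one. Thymus-specific probe sets had to pass the limits on fold, direction and separation of arrays as well.

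The 28 gene lists, the members and the tests were chosen with earlier results of these data known, and no list was tested as a set. Named genes were the 12 highest and 8 lowest differences among genes past every tissue with separated arrays, up to 4 members of each list with the smallest adjusted p, a set of named thymus markers, and the 10 probe sets with the largest difference in usage. Where a count of 5 or fewer fell outside this rule, and for class I chains, Xrcc5, Tap1, Casr and Chgb, members were named after their values were seen, and a few genes that the rule names are left out for length. The 11 pairs of arrays from the same mouse had correlations of deviations from group means between -0.04 and 0.28 (median 0.05, against 0.00231 for different mice). Replicate numbers were not used as pairs, and of 42 pairs of arrays with the same number 7 came from the same mouse.

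Alternatives were all 65 arrays in the fit, all 5 or no adipose arrays, replicate number or mouse as a block, the median over probe sets, a probe set filter at 5, quantile normalization within the 23 arrays, centring on the array median, other limits in the exon test, and leaving out each array.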

Additional observations from a re-analysis of the deposited data

Results flagged for a closer look

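Among 145 groups of 5 thymus arrays examined, for named genes, gene lists and probe sets, 13 held an array far from the other 4. Chance gives about 1 in 20. The groups were not independent, since list means hold genes that were also examined alone. The count of 13 therefore does not measure an excess over chance. Thymus replicate 2 was low in 4 of the 13 groups. It was at 6.02 in Ucp1 (next array 8.64), 4.40 in Cidea (6.48) and 4.70 in S3-12 (5.26), a lipid droplet gene now named Plin4. As the mean of the brown adipocyte list it was at 4.11 (5.75). It was also high in the mean of the cell cycle list, at 8.90 (8.72). Thymus replicate 3 was high in Epb4.2, a red cell membrane gene, at 3.24 (3.09) and in the mean of the erythroid list at 4.37 (3.89), and low in the mean of the neutrophil precursor list at 3.62 (3.80). Replicate 4 was low in Itgam at 4.82 (5.03) and high in Ermap, another red cell membrane gene, at 3.99 (3.84). Replicate 5 was low in Mpo at 3.45 (3.66). Replicate 1 was low in Rbm9 at 5.68 (5.77) and high in the usage of probe set 5559217 of Spnb2, at 0.17 (-0.11).

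Of 107 named genes, 4 had a thymus difference that changed between ages, with bone, muscle and skin as the other tissues at both ages. It was smaller at 18 months by -0.80 in Il2ra (3.93 at 4 months, 3.13 at 18 months, adjusted p = 0.01) and by -0.79 in Cdk6, a kinase of cell cycle entry (2.34 and 1.55, adjusted p = 0.0486). It was less negative at 18 months by 0.99 in Phex, an osteocyte gene (-2.12 and -1.13, adjusted p = 0.0133), and by 0.68 in Rbm9 (-1.82 and -1.14, adjusted p = 0.00562). These changes include any change in the other tissues.

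In the 2 adipose arrays outside the comparison, the mean level of 14 epididymis genes was 6.39 in replicate 4 and 5.38 in replicate 5, against at most 3.07 in adipose replicates 1 to 3.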

How the results depend on the processing

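The counts of genes higher and lower than the mean of the other tissues, 1849 and 1966, and than every tissue, 573 and 404, stayed within 1.5 times under the 9 alternatives other than leaving out an array. With replicate number as a block they were 1833, 1970, 571 and 407, and the exon counts were 1247 genes with 51 probe sets more used and 76 less used, so the block moved no count by over 1.5 times. Leaving out each array in turn gave 1819 to 1881, 1948 to 1996, 561 to 596 and 387 to 408 genes, and at 18 months 1724 to 1887 higher and 1655 to 1711 lower genes.

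The exon results depended more on the setting. With no limit on the difference in gene level, 2209 genes passed the test, with 287 probe sets more used and 296 less used, from 5311 genes tested in place of 3982. With at least 2-fold against each tissue, a limit chosen after seeing the data, 23 were more used and 31 less used. With a level of at least 5 in 1 tissue, also chosen after seeing the data, 51 and 52 were. Leaving out each array gave 797 to 1401 genes past the test, with 811 without thymus replicate 4, 797 without thymus replicate 5 and 1401 without bone replicate 5, and 52 to 68 probe sets more used and 72 to 95 less used. The cause was not tested.

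No named gene changed direction. Calls were lost in Fabp4 without adipose tissue (-0.58), in Cldn4 (0.88), Chga (0.09), Adam28 (0.40) and Foxn1 (0.59) with the probe set filter at 5, in Mmp9 with centring (-0.97) and without adipose replicate 1 (-0.98), in Pth without thymus replicate 3 (0.95), and in H2-Aa, whose difference of 1.02 was at the limit, with mouse as a block and in 6 of 23 leave-outs. Levels near background give lower bounds on fold.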

Other observations

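Adam28, a metalloprotease gene on the epididymis list, was the only one of its 14 members called, at 4.59, 4.47, 4.68, 4.72 and 5.01 in the thymus against 3.11 to 3.66 in the other tissues (difference 1.35, SE 0.0688), or 0.40 over probe sets with a mean of at least 5. The other 13 differed by -0.41 to 0.02.

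Of the 11 epidermal keratinocyte genes, 2 were higher in the thymus and 5 lower than the mean of the 4 tissues. Krt15 was at 2.99 to 3.37 in the thymus and 10.6 as the mean of skin, and Lor, loricrin of the cornified layer, was at 2.77 to 3.22 against 11.6 in skin. The higher genes were Krt5 (2.73, SE 0.0905) and Dsc3 (1.72, SE 0.341), a desmosomal cadherin, the latter named after its value was seen.

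Of 11 osteoblast and osteocyte genes 9 were lower, and Ibsp, bone sialoprotein, was at 2.94 to 3.11 in the thymus and 10.41 to 11.45 in bone. Of 9 osteoclast genes 2 were lower, Ctsk and Mmp9 (-1.05, SE 0.157).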
